A study of Mus musculus with 16 samples.

Results

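Major urinary proteins are small lipocalins that hepatocytes secrete into the blood and that pass into the urine, where they carry volatile scent molecules. The 10 genes of the family followed here were Mup1, Mup2, Mup3, Mup7, Mup9, Mup11, Mup17, Mup19, Mup20 and Mup21. They are the genes with these symbols whose Ensembl identifiers stood in the count tables of both sexes, 10 of 23167 identifiers shared by the tables. The Mup genes are a classic case of sexually dimorphic liver transcription. Pulses of growth hormone in males act through the kinase JAK2 and the transcription factor STAT5b to keep them high, and androgens, thyroid hormone and glucocorticoids also raise them. Mup20 encodes darcin, a male protein pheromone.

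The libraries came from livers of 16 mice, 1 poly(A) library per mouse. The mice were 4 male floxed (1 to 4), 4 male LKO (5 to 8), 4 female floxed (1 to 4) and 4 female LKO (5 to 8). All carried floxed alleles of Matr3, which encodes the nuclear RNA-binding protein matrin-3, and the LKO littermates also carried Cre recombinase under the albumin promoter, which acts in hepatocytes. All 16 mice were kept on a high-fat diet (60% of energy as fat) for 16 weeks from 7 weeks of age and were fasted for 12 hours before tissue was taken, so no lean or untreated liver stands beside them.

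Library totals lay between 30495505 and 36496193 counts. Matr3 itself averaged 35.4 ± 1.6 CPM (counts scaled to a common library size, SD, n = 4) in LKO males against 57.8 ± 3.7 in floxed males, which is 61.3% of the floxed mean. In females it averaged 38.1 ± 1.4 CPM in LKO against 58.1 ± 5.0 in floxed livers, 65.5% of the floxed mean. The groups did not overlap in either sex (exact permutation test, two-sided, p = 0.0286 each, the smallest that 4 against 4 allows). Which exons the floxed alleles flank is not given in the sources used here, so these gene counts may include exons outside the deleted part. All 10 hepatocyte markers were measured above 0 in every group. In such bulk samples, fewer cells of a type and less RNA per cell cannot be told apart.

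The family forms 1 cluster on chromosome 4. In the GENCODE M21 annotation of GRCm38, the assembly also called mm10, 22 protein-coding Mup genes span 2.19 Mb, from 59956804 to 62150863. All 10 members lie on the minus strand. Mup7 is at chr4:60066469-60070475, Mup2 at chr4:60135932-60154289, Mup9 at chr4:60418046-60421952, Mup1 at chr4:60498012-60501960 and Mup11 at chr4:60658466-60662411. Mup17 is at chr4:61591929-61595871 and Mup19 at chr4:61778324-61782269. The other 3 lie together at 1 end of the cluster, Mup20 at chr4:62050234-62054158, Mup3 at chr4:62083476-62087342 and Mup21 at chr4:62147932-62150863.

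The counts have to be read with the likeness of these copies in view. Mup1, Mup2, Mup7, Mup9, Mup11, Mup17 and Mup19 had coding sequences over 98% identical in all 21 of their pairs, and the closest pair, Mup9 and Mup19, reached 99.81%. Mup3 and Mup21 were 94.75% identical to each other, and Mup20 was closest to Mup11 at 91.34%. A stretch of 60 coding bases shows the 3 kinds of gene. It was chosen as the stretch inside a single exon with the most positions at which the 10 members differ, 20 of 60. Capitals mark bases that differ from Mup9. All are printed 5′ to 3′ along the transcript, from the GENCODE M21 transcripts.
Mup9, chr4:60420487-60420546, minus strand: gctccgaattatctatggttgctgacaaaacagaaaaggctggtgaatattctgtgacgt
Mup17, chr4:61594351-61594410, minus strand: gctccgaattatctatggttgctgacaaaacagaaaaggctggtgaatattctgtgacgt
Mup7, chr4:60068901-60068960, minus strand: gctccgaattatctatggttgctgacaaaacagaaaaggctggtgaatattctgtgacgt
Mup11, chr4:60660888-60660947, minus strand: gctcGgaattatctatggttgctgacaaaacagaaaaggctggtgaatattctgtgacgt
Mup20, chr4:62052636-62052695, minus strand: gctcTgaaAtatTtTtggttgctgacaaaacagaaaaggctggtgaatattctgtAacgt
Mup3, chr4:62085959-62086018, minus strand: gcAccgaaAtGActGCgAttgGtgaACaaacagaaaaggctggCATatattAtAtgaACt
Mup21, chr4:62149354-62149413, minus strand: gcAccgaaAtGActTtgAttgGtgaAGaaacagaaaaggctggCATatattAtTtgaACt

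In this stretch Mup7, Mup17 and Mup19 had the same letters as Mup9, and Mup1, Mup2 and Mup11 differed from it at 1 base. Mup20 differed at 5 bases, Mup21 at 16 and Mup3 at 17. In this stretch the 7 near-identical copies carry 2 sequences, which a read inside it can tell apart, but not the copies that share one. To express this over whole transcripts, each transcript was split into all its words of 100 bases and the share of words found in no other gene was counted. The share was 97.1% for Mup3, 95.5% for Mup21 and 61.2% for Mup20. It was 40.6% for Mup17, 16.5% for Mup11, 14.9% for Mup9, 12.9% for Mup7, 12.8% for Mup1 and 2.66% for Mup2. Mup19 had no such word, yet the tables give it between 85 and 6099 counts per library. Mup20 shared the other 38.8% of its words with the pseudogene Mup-ps19. How reads with several matches were counted is not given in the sources used here, so the split of counts among the 7 near-identical copies is uncertain. The split between these copies and other Mup genes is uncertain too, since Mup1, Mup2, Mup7, Mup11 and Mup17 shared most words with such genes.

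**Figure D1:**
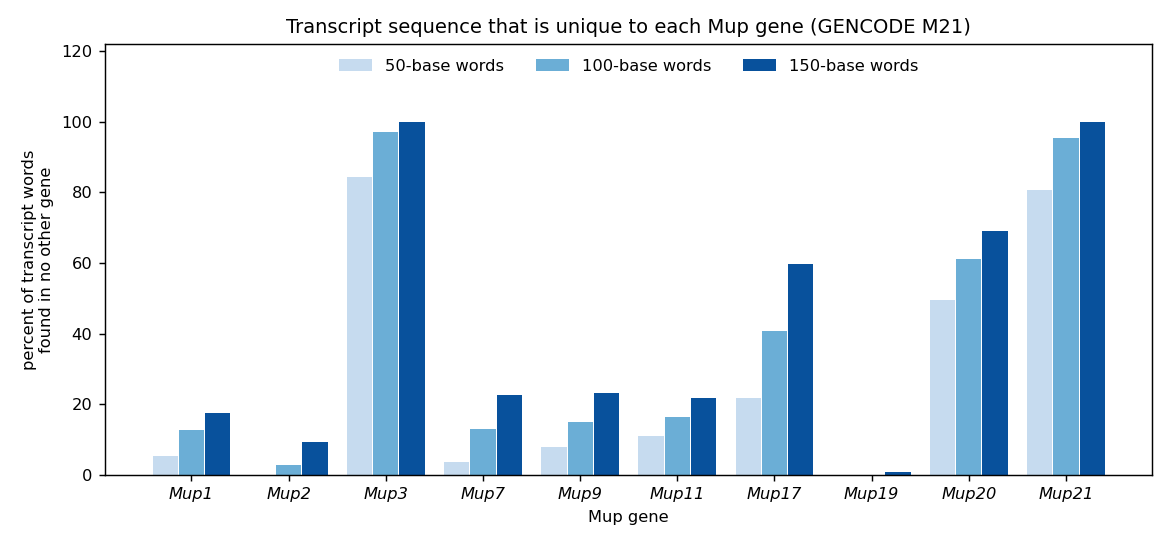
Share of the transcript words of 50, 100 and 150 bases (bars, in percent) that occur in no other gene, for each of the 10 Mup genes. Mup3 and Mup21 reach 97.1% and 95.5% at 100 bases, while Mup2 and Mup19 stand at 2.66% and 0%.

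Promoter sequence, 250 bases before to 50 after the annotated start, was found in RefSeq (GRCm38.p6) for 8 of the 10 members. The copy of TATATAA nearest the start is printed below in capitals with the bases before it, since this stretch was shared by members that differed widely in level. The motif was chosen after the sequences were seen.
Mup17, chr4:61595846-61595947, minus strand: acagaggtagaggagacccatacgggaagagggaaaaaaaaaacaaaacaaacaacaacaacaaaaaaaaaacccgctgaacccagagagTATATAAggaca
Mup11, chr4:60662386-60662487, minus strand: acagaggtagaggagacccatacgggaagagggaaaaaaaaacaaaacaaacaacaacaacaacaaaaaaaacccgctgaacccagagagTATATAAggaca
Mup3, chr4:62087317-62087418, minus strand: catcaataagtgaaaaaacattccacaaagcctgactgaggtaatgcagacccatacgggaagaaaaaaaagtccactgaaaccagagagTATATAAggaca
Mup21, chr4:62150838-62150939, minus strand: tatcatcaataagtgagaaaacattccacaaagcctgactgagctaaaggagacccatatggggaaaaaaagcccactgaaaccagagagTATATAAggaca

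TATATAA was present in 7 of the 8 windows, on the strand of the gene, and in 3.24% of 32841 promoters of the same length on either strand. The window of Mup7 did not hold it, but its annotated start lies further upstream, and the window ends with the bases gggaagagggaaa that precede the motif in Mup2, Mup9, Mup11, Mup17 and Mup19. The longest run of A before it was 12 bases in Mup9, 11 in Mup19, 10 in Mup2 and Mup17, 9 in Mup11, 8 in Mup3 and 7 in Mup21. TTCNNNGAA, the general form of a STAT5 site searched on both strands, was in 0 of the 8 windows and in 8.30% of all promoters. Over the whole 300 bases, the windows of Mup2, Mup9, Mup17 and Mup19 were 93.5% to 96.4% identical to each other and those of Mup3 and Mup21 90.2%. That of Mup11 was 79.8% to 84.9% identical to those 4. That of Mup7 was 44.3% to 50.7% identical to all the others. These shares come from end-to-end alignments, in which windows anchored at different places also count their unmatched ends.

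Mup transcripts made up a larger share of the male libraries. The 10 members took 0.750% ± 0.177 of all counts in floxed males and 0.675% ± 0.060 in LKO males (SD, n = 4 each). In floxed and LKO females they took 0.221% ± 0.018 and 0.262% ± 0.079. Mup3 gave 69.9% ± 11.1 of the members' counts in floxed males and 93.9% ± 1.5 in floxed females, and Mup20 gave 23.9% ± 8.3 and 1.21% ± 0.18. In LKO females the share of Mup20 was 3.23% ± 1.23 and that of the other 8 members 9.85% ± 3.66, against 4.85% ± 1.63 for those 8 in floxed females.

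**Figure D2:**
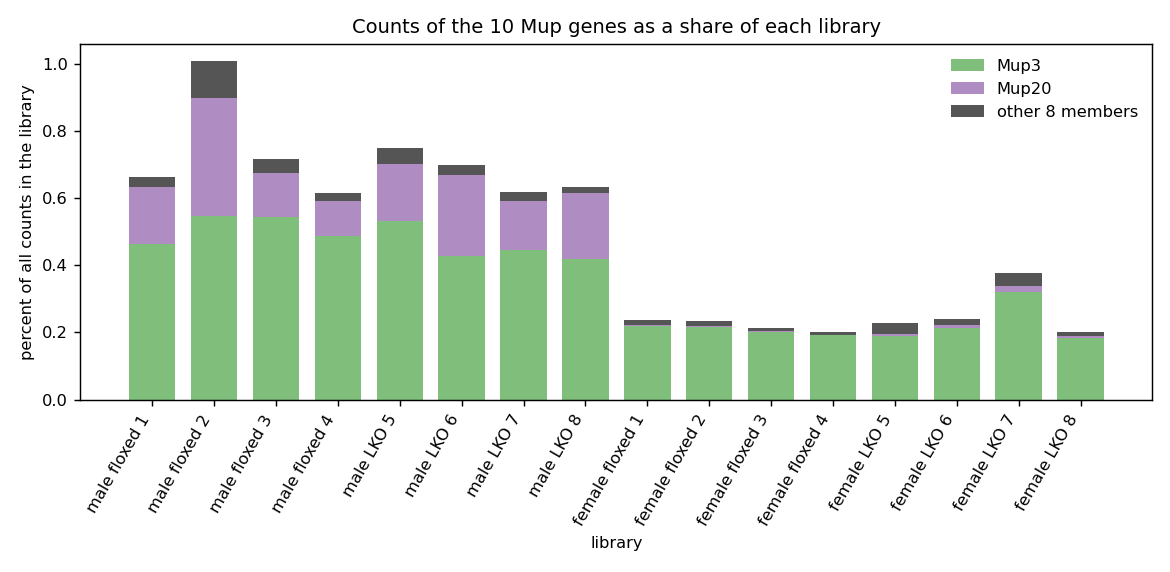
Counts of the 10 Mup genes in each of the 16 libraries as percent of all counts (stacked bars starting at 0; Mup3 green, Mup20 purple, the other 8 members grey). Male bars lie between 0.614% and 1.01%, female bars between 0.200% and 0.377%, and male floxed 2 is the tallest.

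Per length of transcript, Mup3 was the most abundant member in all 4 groups, with a mean of 5249.7 CPM per kb in floxed males and 2028 in floxed females. In floxed males Mup20 followed at 2048 CPM per kb, and then Mup7 at 268, Mup21 at 135, Mup17 at 73.2, Mup19 at 55.5 and Mup11 at 25.96. Mup3, Mup20 and Mup7 were set apart in that order, with no overlap of their libraries, while each neighbouring pair from Mup7 down overlapped. In floxed females the second was Mup17 at 90.4 CPM per kb, then Mup20 at 27.5 and Mup21 at 7.71, again with no overlap between these neighbours. Mup7, the third most abundant member in males, had the lowest mean of the 10 in floxed females, at 0.277 CPM per kb, though its libraries overlapped with those of Mup1.

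The next comparison asked how the sexes differ in livers that kept Matr3. CPM values from here on are scaled by TMM, a factor per library computed over all 16. Floxed females were lower than floxed males in 9 of 10 members, against 22.9% of all genes called in either direction and 11.6% called lower (edgeR quasi-likelihood test, adjusted p under 0.05). The median log2 difference of the 10 members was -2.998, and that of all genes tested was 0.00 to 2 decimals. The groups did not overlap for 7 members, all lower in females, against 24.1% of all genes and 12.5% lower.

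Mup3 stood at 4449, 5496, 5648 and 5069 CPM in male floxed 1 to 4 and at 2168, 2083, 1922 and 1810.3 CPM in female floxed 1 to 4. Every male library exceeded every female one, and both groups were tight. The log2 difference was -1.37 (SE 0.16, edgeR adjusted p = 1.52e-05). Mup20, which encodes darcin, stood at 1621, 3547, 1357 and 1078 CPM in the males and at 22.8, 27.3, 28.5 and 23.4 CPM in the females. The female libraries lay within a narrow band far below the lowest male. The log2 difference was -6.22 (SE 0.48, edgeR adjusted p = 2.82e-07). Mup21 stood at 81.5, 151, 81.5 and 51.0 CPM in the males and at 3.73, 5.33, 8.38 and 3.45 CPM in the females, a log2 difference of -4.13 (SE 0.39, edgeR adjusted p = 2.29e-06). These 3 are the members with the most sequence of their own.

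Mup7 differed most among the 10 members. It stood at 137, 478, 268 and 109.9 CPM in male floxed 1 to 4 and at 0.185, 0.408, 0.156 and 0.277 CPM in female floxed 1 to 4, where it rested on 5 to 14 counts per library. The log2 difference was -9.89 (SE 0.89, edgeR adjusted p = 1.32e-06), and no library of one sex came near the other. Mup1 was also lower in females, by a log2 difference of -5.84 (SE 0.66, edgeR adjusted p = 1.52e-05), with 7.41 to 43.1 CPM in males and 0.123 to 0.553 CPM (4 to 19 counts) in females. Mup11 was lower by -3.09 (SE 0.55, edgeR adjusted p = 0.000878), from 11.4 to 49.4 CPM in males and from 1.06 to 5.52 CPM in females.

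The remaining near-identical copies were less firm. Mup2 had a log2 difference of -0.82 (SE 0.28, edgeR adjusted p = 0.0466), with 7.60 to 13.04 CPM in males and 3.48 to 6.66 CPM in females. Mup9 had -2.90 (edgeR adjusted p = 0.0321) and Mup19 -2.88 (edgeR adjusted p = 0.0474), and for both the groups overlapped. The call of Mup2 was lost without male floxed 3 or 4 or any 1 of the floxed females, with edgeR adjusted p up to 0.136. Those of Mup9 and Mup19 were lost without female floxed 1, 2 or 4, and that of Mup19 also without female floxed 3. Both values rested on male floxed 2. Without that library the log2 difference of Mup9 was -0.64 (edgeR adjusted p = 0.512) and that of Mup19 was 0.22 (edgeR adjusted p = 0.822). Mup17 was not called, with a log2 difference of 0.31 (95% interval -0.80 to 1.41, edgeR adjusted p = 0.713). Without male floxed 2 it was higher in females, by 1.31 (edgeR adjusted p = 0.0352).

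**Figure D3:**
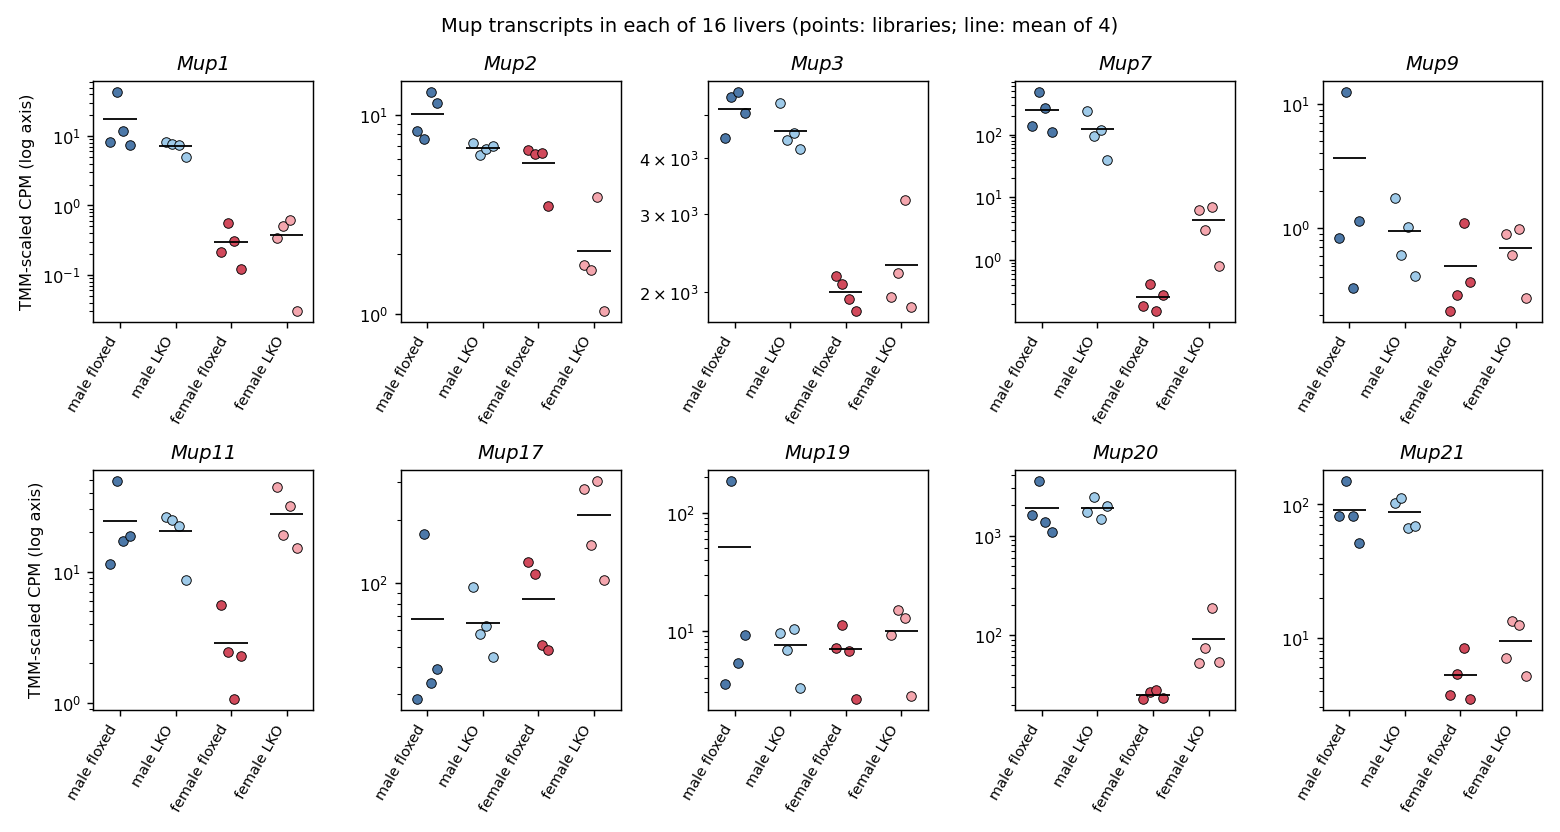
TMM-scaled CPM of each Mup gene on a log axis in the 4 groups (points are libraries in the order of their numbers, lines are means of 4). Mup3, Mup7, Mup20 and Mup21 separate the sexes in floxed livers, Mup7, Mup11 and Mup20 separate LKO from floxed females, and the highest floxed male of 8 panels is male floxed 2.

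Male floxed 2 was the highest floxed male for 8 of 10 members. Its level over the mean of the other 3 floxed males was 31.3-fold for Mup19, 16.3-fold for Mup9, 5.05-fold for Mup17, 4.69-fold for Mup1 and 3.14-fold for Mup11. It was 2.78-fold for Mup7, 2.62-fold for Mup20, 2.12-fold for Mup21 and 1.09-fold for Mup3, and Mup2 was at 0.695 times the mean of the others. The mouse numbers given for male floxed 1 and 2 are far from the rest, and male floxed 1 was the highest for no member.

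Deletion of Matr3 gave no called change of a Mup gene in males. In LKO against floxed males 0 of 10 members were called by edgeR, against 1.04% of all genes, with 3 members at an unadjusted p under 0.05, and DESeq2 called 1. Mup20 stood at 1708, 2442, 1480.0 and 1997 CPM in male LKO 5 to 8 against the floxed values above. The groups overlapped throughout, with a log2 fold change of 0.00 (95% interval -0.71 to 0.72, edgeR adjusted p = 0.999). Mup3 stood at 5341, 4389, 4557 and 4187 CPM in male LKO 5 to 8, a log2 fold change of -0.16 (95% interval -0.39 to 0.07, edgeR adjusted p = 0.586). Mup21 had -0.06 (95% interval -0.70 to 0.59) and Mup11 -0.25 (95% interval -1.23 to 0.74).

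The nearest to a call in males was Mup2. It stood at 8.27, 7.60, 13.04 and 11.5 CPM in male floxed 1 to 4 and at 7.26, 6.26, 6.77 and 7.01 CPM in male LKO 5 to 8. The highest LKO liver was just under the lowest floxed one, the 1 member of the 10 whose groups did not overlap, against 8.06% of all genes and 4.14% lower. The log2 fold change was -0.57 (SE 0.16, edgeR adjusted p = 0.165). The call was made by DESeq2 (adjusted p = 0.0430) and by edgeR when male floxed 1 and 2 were both omitted, at -0.85 (adjusted p = 0.0110). Mup1, Mup9 and Mup19 had log2 fold changes of -1.32, -1.96 and -2.77 with edgeR adjusted p between 0.314 and 0.467. Without male floxed 2, Mup1 was at -0.38, Mup9 at 0.31 and Mup19 at 0.33. For Mup7 the value was -1.02 (95% interval -2.23 to 0.19).

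In LKO females 4 of 10 members differed from floxed females, against 9.29% of all genes. Mup7, Mup11 and Mup20 were higher in LKO livers (3 of 10, against 4.44% of all genes) and Mup2 was lower (1 of 10, against 4.85%). The groups did not overlap for Mup7, Mup11 and Mup20, all higher, against 16.0% of all genes and 8.04% higher. Without female floxed 1 or without female floxed 2 the number called was 2, Mup7 and Mup11. The median log2 fold change of the 10 members was 0.69, and that of all genes was 0.00 to 2 decimals.

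Mup20 stood at 22.8, 27.3, 28.5 and 23.4 CPM in female floxed 1 to 4 and at 52.2, 74.0, 189.5 and 54.3 CPM in female LKO 5 to 8. Every LKO liver exceeded every floxed one, and female LKO 7 was well above the other LKO livers. The level was 3.62-fold higher, or 1.86 in log2 (SE 0.38, edgeR adjusted p = 0.0190). The call was lost without female floxed 1 (edgeR adjusted p = 0.0653) or female floxed 2 (0.0559). Without female LKO 7 the log2 value was 1.24 (edgeR adjusted p = 0.00116). The LKO female mean of 92.5 ± 65.4 CPM remained far under the 1907 ± 415 CPM of LKO males.

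Mup11 stood at 5.52, 2.45, 1.06 and 2.28 CPM in female floxed 1 to 4 and at 44.5, 18.9, 31.8 and 15.2 CPM in female LKO 5 to 8. The lowest LKO liver was above the highest floxed one. The fold change was 9.75, a log2 value of 3.28 (SE 0.47, edgeR adjusted p = 0.00635), and the call was made at each of the 19 other settings. The LKO females lay in the range of the males, which was 8.66 to 49.4 CPM over both male groups. The upper end of that range was male floxed 2. The next highest male, male LKO 5, stood at 26.1 CPM, below female LKO 5 and 7. Mup7 stood at 6.33, 3.03, 6.97 and 0.794 CPM in female LKO 5 to 8, each above the floxed range of 0.156 to 0.408 CPM. The fold change was 16.3, a log2 value of 4.03 (SE 0.66, edgeR adjusted p = 0.00905). The lowest of these livers, female LKO 8, held 26 counts, and with limma-voom the adjusted p was 0.0588. The floxed females held 5 to 14 counts, so Mup7 passed the filter on low counts through the LKO group, where it was higher. LKO females remained below the lowest male, at 38.6 CPM.

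Mup2 was the member that fell. It stood at 6.66, 6.35, 6.42 and 3.48 CPM in female floxed 1 to 4 and at 1.76, 1.66, 3.87 and 1.04 CPM in female LKO 5 to 8. Female floxed 4 was below female LKO 7, and the other libraries were separate. The log2 fold change was -1.46 (SE 0.36, edgeR adjusted p = 0.0357). The call was lost in 6 of the 8 fits that left out 1 library, those without female floxed 1, 2 or 3 or female LKO 5, 6 or 8, with edgeR adjusted p up to 0.0995. Mup2 had 2.66% of its 100-base words to itself.

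Mup17 and Mup21 were not called. Mup17 stood at 125, 111, 50.9 and 48.0 CPM in female floxed 1 to 4 and at 278, 152, 306 and 103 CPM in female LKO 5 to 8. The lowest LKO liver fell within the floxed range. The log2 fold change was 1.32 (95% interval 0.43 to 2.21, edgeR adjusted p = 0.0666). It was called with no filter on low counts (edgeR adjusted p = 0.0453), with DESeq2 (adjusted p = 0.0406) and without female LKO 8 (edgeR adjusted p = 0.0481). Mup21 stood at 7.04, 13.3, 12.6 and 5.19 CPM in female LKO 5 to 8 and overlapped with the floxed libraries. Its log2 fold change was 0.86 (95% interval 0.09 to 1.64, edgeR adjusted p = 0.142).

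Mup3, the bulk of the Mup RNA in females, was not called. It stood at 1940, 2198, 3216 and 1847 CPM in female LKO 5 to 8, with female LKO 7 above all other females and female LKO 5 and 8 within the floxed range. The log2 fold change was 0.20 (95% interval -0.19 to 0.59, edgeR adjusted p = 0.490). Mup1, Mup9 and Mup19 had log2 fold changes of 0.31, 0.49 and 0.52 with edgeR adjusted p between 0.531 and 0.792. The libraries differed together, since female LKO 7 was the highest LKO female for 7 of 10 members and female LKO 8 the lowest for 9.

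**Figure D4:**
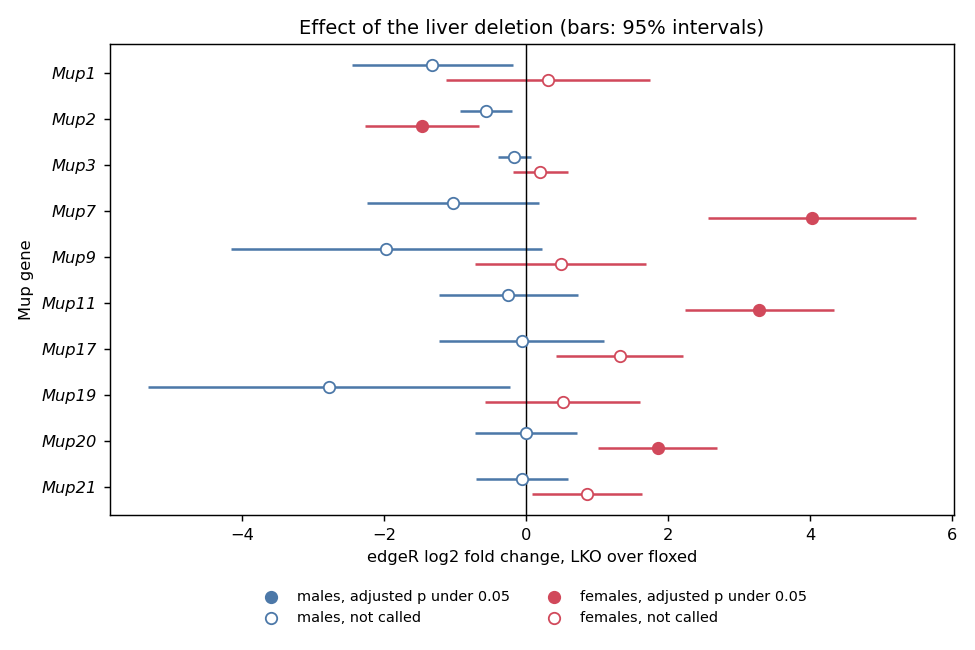
Log2 fold change of LKO over floxed livers for each Mup gene in males (blue) and females (red), with 95% intervals from edgeR; filled points have an adjusted p under 0.05. No male point is filled, and in females Mup7, Mup11 and Mup20 lie above 0 and Mup2 below.

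Whether the deletion acted differently in the sexes was tested directly as the difference of the effects, female minus male, in 1 fit of all 16 libraries. It was called for 2 of 10 members, both higher, against 4.42% of all genes and 1.97% higher. Mup7 had a difference of 5.05 on the log2 scale (SE 1.08, edgeR adjusted p = 0.0160) and Mup11 one of 3.53 (SE 0.72, edgeR adjusted p = 0.0141). The difference for Mup20 was 1.85 (95% interval 0.69 to 3.02, edgeR adjusted p = 0.0653). For Mup3 it was 0.37 (95% interval -0.09 to 0.82, edgeR adjusted p = 0.358) and for Mup2 -0.89 (95% interval -1.77 to -0.01, edgeR adjusted p = 0.238). The call of Mup7 was lost with limma-voom (adjusted p = 0.217), while Mup11 kept its call at each of the 28 other settings.

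The same libraries compared as LKO females against LKO males gave 7 called members, 6 lower and 1 higher, against 42.0% of all genes, 20.8% lower and 21.2% higher. The groups did not overlap for those 7 members, against 39.1% of all genes, 20.0% lower and 19.1% higher. Mup20 had a log2 difference of -4.36 (SE 0.44, edgeR adjusted p = 1.79e-06) where floxed livers had -6.22. Mup7 had -4.83 (SE 0.65, edgeR adjusted p = 2.80e-05) where floxed livers had -9.89. Mup1, Mup2, Mup3 and Mup21 were also lower in LKO females, by log2 differences of -4.22, -1.71, -1.01 and -3.21. Mup17 was higher in LKO females, by 1.69 (SE 0.53, edgeR adjusted p = 0.0179), a call lost without male LKO 8 (edgeR adjusted p = 0.0533). Mup11 had a difference of 0.44 (95% interval -0.56 to 1.45, edgeR adjusted p = 0.481) where floxed livers had -3.09. Mup9 and Mup19 were not called, at -0.45 and 0.41.

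**Figure D5:**
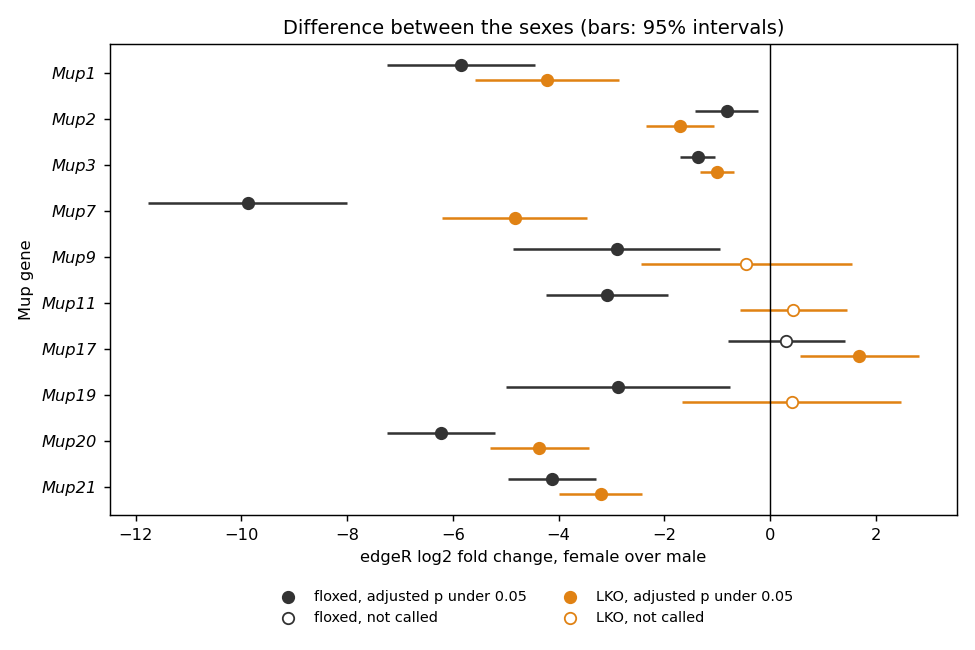
Log2 difference of females over males for each Mup gene in floxed livers (black) and LKO livers (orange), with 95% intervals from edgeR; filled points have an adjusted p under 0.05. Mup7 (-4.83 against -9.89) and Mup11 (0.44 against -3.09) lie nearer 0 in LKO than in floxed livers. This restates the difference of their deletion effects, from the same fit. Mup1, Mup3, Mup9, Mup19, Mup20 and Mup21 also lie nearer 0 in LKO livers, while Mup2 and Mup17 lie further from it.

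Since single near-identical copies may trade reads, their sum is given as a description. Reads may also be shared with Mup genes outside this sum. Mup1 shared 75.36% of its words with Mup12, Mup2 68.48% with Mup14 and Mup11 66.19% with Mup18. Mup7 shared 59.18% with Mup15 and Mup17 33.45% with Mup13, while Mup9 and Mup19 shared most with each other. Mup15, outside the sum, averaged 177 CPM in floxed and 348 CPM in LKO females. The 7 near-identical copies together stood at 423 ± 357 CPM in floxed males, 230.1 ± 116 in LKO males, 100.4 ± 44.9 in floxed females and 255 ± 116 in LKO females (SD, n = 4 each). The ranges were 57.2 to 145 CPM in floxed and 123 to 363 CPM in LKO females, and they overlapped. Mup17 supplied most of this sum in females. The 3 divergent members together stood at 7157 ± 1424, 6613 ± 512, 2027 ± 160 and 2402 ± 696 CPM in the same order of groups.

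Other genes of the cluster were counted too. Of the Mup genes outside the 10, 6 were tested in females and 1 was called, higher, against 4.44% of all genes. The most abundant were Mup15, Mup22, Mup14 and Mup16. Mup16 averaged 8.72 ± 1.87 CPM in floxed and 21.9 ± 8.3 CPM in LKO females, a rise of 1.33 in log2 (SE 0.26, edgeR adjusted p = 0.0172). Mup15, at 177 ± 91.3 and 348 ± 194 CPM, was not called (log2 fold change 0.97, edgeR adjusted p = 0.197). Of the 19 Mup pseudogenes in either count table, 6 passed the filter in females. Of these, 5 were lower in LKO livers, with a median log2 fold change of -2.47, against 4.85% of all genes. Some of the 5 passed only through the floxed group, where they were higher, which tilts the count and the median. The 5 also share words of 100 bases with other Mup pseudogenes, so they may share reads and are not separate measurements. In males 12 pseudogenes passed and 1 was called, higher, with a median of 0.10, against 1.04% of all genes. The genes flanking the cluster on chromosome 4 had 0 of 15 tested called in males, against 1.04% of all genes. In females 1 of 15 was called, or 6.67%, where 9.29% of all genes were. It was Alad, an enzyme of haem synthesis, which fell by 0.55 on the log2 scale (edgeR adjusted p = 0.0150).

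Genes of growth hormone signalling and of the hormonal control of Mup transcription were taken as a list of 26. In males 0 of 26 were called, against 1.04% of all genes. In females 5 were called, 2 higher and 3 lower, against 9.29% of all genes, with a median log2 fold change of -0.12. Lepr, the leptin receptor, stood at 11.9, 10.6, 6.26 and 35.2 CPM in female floxed 1 to 4 and at 380, 115, 85.4 and 287 CPM in female LKO 5 to 8. The groups were well apart, and the log2 fold change was 3.76 (SE 0.63, edgeR adjusted p = 0.0101). Hnf4a, a hepatocyte nuclear receptor, rose by 0.52 (edgeR adjusted p = 0.0230). Prlr, the prolactin receptor, fell by 0.57 (edgeR adjusted p = 0.0267). In floxed livers 8 of the 26 differed between the sexes, 30.8%, where 22.9% of all genes did. Among the 8 were Cux2, a female-biased repressor, with a log2 difference of 6.50 (edgeR adjusted p = 3.29e-06) and Ghr, the growth hormone receptor, with -0.65 (edgeR adjusted p = 0.00124).

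Liver genes outside the Mup family that were listed as male-biased had 16 of 18 lower in floxed females than in floxed males. Among all genes 11.6% were lower, but the list was chosen for this bias. In LKO against floxed males 1 of 17 tested was higher and 2 were lower, with a median log2 fold change of -0.54, against 1.04% of all genes. Cyp8b1, a bile acid hydroxylase, rose by 0.49 (edgeR adjusted p = 0.0368), Susd4 fell by 0.64 (0.0309) and Serpina1e, which has close copies that may share its reads, by 1.54 (0.0398). In LKO against floxed females 2 of 14 tested were higher and 1 lower, with a median of 0.18, against 9.29% of all genes. Slco1a1, an organic anion transporter, rose by 2.37 (edgeR adjusted p = 0.0165), and C6, a complement component, by 1.00 (edgeR adjusted p = 0.0271). Ugt2b1, a glucuronosyltransferase, fell by 0.72 (edgeR adjusted p = 0.0158). Female-biased liver genes had 13 of 23 lower and 2 higher in LKO females, against 4.85% and 4.44% of all genes, with a median log2 fold change of -1.18. The sulfotransferases Sult2a2 and Sult2a1 had log2 fold changes of -5.01 and -5.02 (edgeR adjusted p = 0.000527 and 0.000899), and as close copies they may share reads.

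The Mup proteins belong to the lipocalins, so the other lipocalins of the liver were listed. In females 5 of 9 tested were higher and 1 lower, against 4.44% and 4.85% of all genes. Lcn2, which binds bacterial iron carriers, rose by 2.85 (edgeR adjusted p = 0.0112), Orm1 by 1.86 (0.0120), Orm3 by 1.44 (0.0160) and Ambp by 0.71 (0.0286). In males 0 of 10 tested were called, against 1.04% of all genes. Of the 12 listed lipocalins, 4 were also on the list of acute-phase genes, which the liver secretes more of during inflammation.

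Acute-phase genes and cell type markers moved in the same female comparison. Of 20 acute-phase genes 18 were higher in LKO females, against 4.44% of all genes. Their summed level ranged from 26511 to 43044 CPM in floxed and from 70502 to 154442 CPM in LKO females. Female LKO 7, the highest for Mup20 and Mup3, had the lowest of the LKO sums. The 10 hepatocyte markers summed to 68584 to 78507 CPM in floxed and 47308 to 61539 CPM in LKO females. Of these, 2 were called higher (Fgb and Tat) and 2 lower (Alb and Ttr), against 4.44% and 4.85% of all genes. Of 8 sinusoidal endothelial markers 6 were lower, against 4.85% of all genes. The sum of the 8 ranged from 245 to 263 CPM in floxed and from 167 to 220.0 CPM in LKO females. Of 7 Kupffer cell markers 0 were called, against 9.29% of all genes. The part of these differences in the Mup values was not tested.

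Genes whose level went most closely with the summed Mup level across the 16 libraries were found among 10845 genes. Pearson's r of log2 CPM was 0.972 for Tpmt, 0.969 for Cyp2d9, 0.965 for Cyp2u1, 0.960 for Dpy19l3 and 0.959 for Abcg2. All 5 were higher in males, and the 16 points fall into a male and a female cluster. Cyp2d9, a male-biased cytochrome P450, averaged 1040.3 ± 298 CPM in floxed males and 25.05 ± 13.1 CPM in floxed females. After the mean of each group was removed, r was 0.882 for Bhlhe40 and Slc2a2, 0.878 for Paxx, 0.875 for Pde4c and 0.854 for Szrd1. Slc2a2, the hepatic glucose transporter, was at its group's highest in male floxed 2 and in female LKO 7, at 476 and 420 CPM.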

How the data were processed

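Livers of 16 mice were measured by directional poly(A) RNA sequencing, per the labels' protocols. The authors deposited whole-number counts per Ensembl gene, 1 table per sex, used here as given. Reads were mapped to mm10, per the submitters' processing notes. Their aligner, the counting program, its strand setting and its treatment of reads with several matches are not given in the sources used here. Males had 24623 identifiers and females 24840, and 26 and 28 of them, with 0.0289% and 0.0349% of the counts, had no symbol.

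Groups came from the labels. Genes passing filterByExpr (minimum count 10, minimum total 15) were scaled by TMM and tested over the whole table in edgeR 4.0.16 (R 4.3.3) by its two-sided quasi-likelihood test, with Benjamini-Hochberg adjustment, and called at an adjusted p under 0.05. Each sex was fitted alone. All 16 libraries in 1 fit gave the difference of the effects and both comparisons of the sexes. The 95% intervals use the standard error and the total degrees of freedom (residual plus prior) of the edgeR fit concerned. CPM means and SDs use TMM scaling, and log2 CPM for correlations used a prior count of 2. Matr3 had an exact permutation test. Sums over members had none.

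Alternatives were DESeq2 1.42.0, limma-voom (limma 3.58.1), other scalings and filters, robust dispersion, a replicate block and omission of libraries. No pair of replicates was a copy, with a chi-square per degree of freedom of at least 13.3. On counts simulated with the same dispersion for every gene, 91% of 2-fold changes were recovered in the male comparison. Recovery was 82% in the female comparison and 61% for the sex difference of the effects. Recovery for the Mup genes themselves was not tested. In males the standard errors of their log2 fold changes ranged from 0.10 for Mup3 to 1.15 for Mup19.

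The members and lists were chosen with earlier results of these data known. All 10 members are named, at most 4 genes per list by smallest adjusted p, the 4 other Mup genes of highest mean CPM (pseudogenes are counted only), Mup-ps19 as the copy of Mup20, and the 5 genes of highest correlation with the summed members. Some genes that these rules name are left out here. Coding sequences came from GENCODE M21 (the transcript with a coding length nearest 540 bases) and promoters from RefSeq.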

Additional observations from a re-analysis of the deposited data

Results flagged for a closer look

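There were 4 values that stood out because male floxed 2 lay far above the other floxed males, by the gap to its nearest neighbour over the group's range. They were Mup1 at 43.1 CPM, Mup9 at 12.5, Mup17 at 170.2 and Mup19 at 188. In females, Mup2 at 3.48 CPM in female floxed 4 lay far below its group, and Mup20 at 189.5 CPM in female LKO 7 lay far above it. This check was made in 44 groups of 4 libraries and 6 were marked, where chance marks about 1 in 20. Of the 6, 4 were male floxed 2.

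The effect of the deletion differed between the sexes for Mup7, by 5.05 on the log2 scale (female minus male), and for Mup11, by 3.53, in the edgeR test of the difference itself. In females Mup7 was higher in 4 of 4 LKO livers than in any floxed liver, and so was Mup11.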

How the results depend on the processing

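The number of members called ranged over the other settings from 0 to 1 in males, 2 to 5 in females, 1 to 3 for the difference of the effects, 6 to 9 in floxed livers and 6 to 7 in LKO livers between the sexes. In males it was 1 with DESeq2 and 1 without male floxed 1 and 2. In females, leaving out 1 library gave 2 to 4. For the difference it was 1 with limma-voom. Over all genes the calls ranged from 69 to 524 in males (160 as reported), from 396 to 3028 in females (1433), from 243 to 2030 for the difference (713), and from 2555 to 4177 between floxed sexes (3698).

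Changes of sign were seen for uncalled values, and for the called Mup19 between floxed sexes. In males without floxed 1 and 2, Mup9 was at 0.37, Mup11 at 0.18, Mup17 at 0.83, Mup19 at 0.0573 and Mup21 at 0.40. With limma-voom Mup17 was at 0.32 and Mup21 at 0.0157 in males, and Mup1 at -0.0429 in females. With library totals Mup20 was at -0.0060 in males. When 1 library was left out, the male values ranged from -2.45 to 0.31 for Mup9, -0.48 to 0.37 for Mup11, -0.32 to 0.95 for Mup17, -3.16 to 0.33 for Mup19, -0.19 to 0.50 for Mup20 and -0.25 to 0.30 for Mup21. Mup1 in females ranged from -0.0518 to 0.78, Mup19 between floxed sexes from -3.28 to 0.22 and Mup9 between LKO sexes from -0.71 to 0.0247. Without female floxed 4 and female LKO 7, a setting added after the data were seen, Mup1 was at -0.31 and Mup3 at -0.0412 in females, and 4 members were called. The cause of these changes was not tested.

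Between floxed sexes the calls of Mup2, Mup9 and Mup19 were lost at several settings, and those of Mup1, Mup3, Mup7, Mup11, Mup20 and Mup21 at none. The difference of the effects was also called for Mup2 without female LKO 7 (-1.38, edgeR adjusted p = 0.0167) or without it and female floxed 4 (-1.56, 0.00221), and for Mup20 without male floxed 4 (2.05, 0.0470). With the replicate block, 2 members were called for the difference, 6 between floxed and 7 between LKO sexes. A pairing of the mice by number was not seen, though correlations of expression cannot exclude one. Deviations of same-numbered mice correlated at -0.199 to 0.270, and the best match was the own number for numbers 2 and 7 only. Matr3 lay between 59.9% and 62.7% of the floxed mean in males and between 63.4% and 67.8% in females when 1 library was left out, where the exact test cannot reach 0.05. With all Mup genes and pseudogenes, the share of counts in floxed females was 0.252%. With a minimum of 1 CPM in 4 libraries, 3 members were called in females, and Mup7 was not tested. Depth limits Mup1, Mup7 and Mup9 in females, with as few as 1, 5 and 7 counts in a library.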
